A study of Mus musculus with 6 samples.

Results

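The genes of MHC class II antigen presentation were followed across the livers of C57BL/6 mice, an inbred strain, on 2 diets. The members were all probe sets whose only gene symbol in the platform annotation is H2-Aa, H2-Ab1, H2-Eb1, H2-Ea, Cd74, H2-DMa, H2-DMb1, H2-Oa or H2-Ob. These 9 genes were read by 10 of the 12488 probe sets of the table, with 2 for H2-DMa and 1 for each other gene. All mice were C57BL/6 and ate their diet for 12 weeks, either a Western-style one high in fat or a low-fat one, and 3 arrays of liver RNA stand for each. Arrays of 1 diet are labelled as replicates, and nothing says whether an array holds 1 mouse or a pool, so p-values measure the spread between these arrays. They name LDL receptor deficiency among the keywords, but no sample label gives such a genotype, and age and sex are not given in the labels. The values are deposited linear intensities, for which the labels name no software or background correction.

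MHC class II molecules carry peptides of engulfed proteins to the cell surface, where CD4 T cells read them. An alpha and a beta chain pair in the endoplasmic reticulum with the invariant chain, the product of Cd74, which blocks the groove and guides the complex to endosomes. There H2-DM, built from H2-DMa and H2-DMb1, exchanges the last invariant chain fragment for peptide, and H2-O, built from H2-Oa and H2-Ob, restrains H2-DM, mainly in B cells. In liver, class II is known from Kupffer cells, dendritic cells, B cells and sinusoidal endothelium, and hepatocytes carry little. The transactivator encoded by Ciita switches on the genes of the class II chains, and interferon gamma induces Ciita.

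The class II promoters are shown because several of the members rose and fell together from array to array, as described below. Class II promoters share an X box and a Y box, which are bound by the factors that recruit the Ciita product. RefSeq's promoter table of mouse assembly GRCm38.p6 matched 6 of the 9 members, H2-Aa, H2-Eb1, H2-DMa, H2-DMb1, H2-Oa and H2-Ob. H2-Ab1, Cd74 and H2-Ea had no entry. The letters GNAAC, from the X box, followed after 20 to 30 bases by TGATTGG, from the Y box and overlapping the inverted CCAAT motif, were searched on both strands from 250 bases before to 50 bases after each gene start. The spacing was chosen after the sequences were seen. The pair was found for 5 of the 6 members and in 0.323% of the 32851 windows of the table, and TGATTGG alone was in 7.82% of them. In H2-DMa neither of the windows listed held the pair or TGATTGG, which says only that these letters are not there. The 150 bases before each start follow, 5′ to 3′ on the strand of the gene, with the letters of the X and Y boxes in capitals.
H2-Aa, chr17:34287824-34287973, minus strand: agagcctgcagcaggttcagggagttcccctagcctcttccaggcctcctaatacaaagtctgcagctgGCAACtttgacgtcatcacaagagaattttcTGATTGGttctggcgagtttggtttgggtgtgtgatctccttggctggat
H2-Eb1, chr17:34305717-34305866, plus strand: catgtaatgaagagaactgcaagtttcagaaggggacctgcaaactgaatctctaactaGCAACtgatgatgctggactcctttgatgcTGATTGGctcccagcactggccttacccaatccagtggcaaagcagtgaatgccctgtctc
H2-DMb1, chr17:34153041-34153190, plus strand: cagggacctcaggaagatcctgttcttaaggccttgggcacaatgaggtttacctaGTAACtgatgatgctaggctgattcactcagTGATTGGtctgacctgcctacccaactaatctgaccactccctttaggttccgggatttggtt
H2-Oa, chr17:34092229-34092378, plus strand: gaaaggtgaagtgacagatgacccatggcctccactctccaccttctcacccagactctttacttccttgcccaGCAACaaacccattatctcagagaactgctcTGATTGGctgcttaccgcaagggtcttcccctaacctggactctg
H2-Ob, chr17:34238755-34238904, plus strand: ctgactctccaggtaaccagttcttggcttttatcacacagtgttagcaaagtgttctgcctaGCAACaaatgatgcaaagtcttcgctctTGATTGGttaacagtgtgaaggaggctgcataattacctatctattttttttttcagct
In these 5 windows TGATTGG began 45 to 63 bases before the start, and GNAAC lay 23 to 26 bases upstream of it. A match is a description of the letters and does not show that a factor binds. Whether the pair has a part in the shared pattern over the arrays was not tested. H2-Oa and H2-Ob hold the pair, and their r with that pattern was -0.226 and 0.388.

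After trimming 2% of the probe sets at either end, mean intensities were 499.87 to 499.88 on all arrays. Any value under 68.9, which is the 30th percentile over the table, was raised to it as a floor, and 8950 probe sets above it on at least 3 arrays were tested with limma. The 3' to 5' ratio of the Gapdh control ran from 0.824 to 1.23 over the 6 arrays (exact two-sided permutation p = 0.3 between the diets, with 0.1 the lowest p this design can give), and low-fat array 1 stood within that range at 1.04. For the beta-actin control the ratio was higher, from 1.56 to 1.96, with 1.63 on low-fat array 1 (exact two-sided permutation p = 0.3 between the diets). All 9 hepatocyte markers with a probe set, among them Alb and Ttr, were above the floor on at least 3 arrays. For 6 of the 9 tested class II probe sets low-fat array 1 stood at least 1.5 times above the mean of the other low-fat arrays, so results are given with and without it.

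On the high-fat diet no class II gene passed the test in either direction. Of the 10 member probe sets 9 were above the floor on enough arrays to be tested, and 0 of these 9 passed an adjusted p of 0.05 in limma, where 0.827% of all tested probe sets passed. An unadjusted p under 0.05 was reached by 0 of the 9, against 9.07% of all tested probe sets. The arrays of the diets overlapped for all 9, whereas they did not overlap for 14.1% of all tested probe sets. Over the 8 tested genes, with the brightest probe set of each, the median log2 fold change was -0.0044, beside 0.0077 over all 6557 tested genes. Without low-fat array 1 that median was 0.32, beside 0.0065 over all genes, and again 0 of the 9 probe sets passed in limma, where 0.358% of all probe sets did, with 2 at an unadjusted p under 0.05, against 7.74% of all. That array was left out because it was high for several of these genes, so that its omission raises their fold changes by construction and the values without it are a description. In whole liver RNA, fewer cells of a type and less RNA per cell cannot be told apart.

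**Figure D1:**
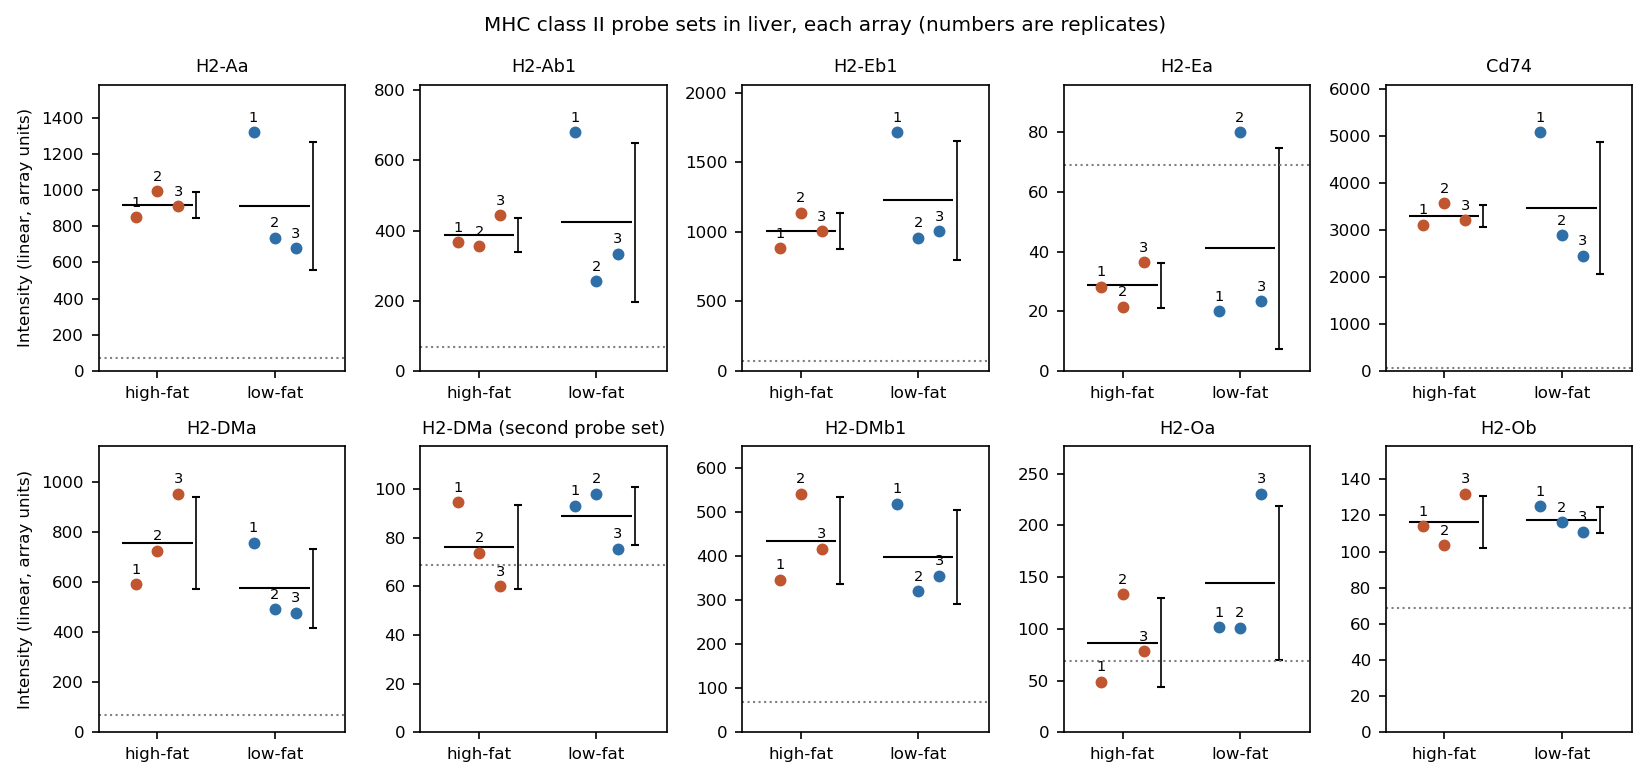
Linear intensity of each of the 10 class II probe sets on the 3 high-fat (orange) and 3 low-fat (blue) arrays, numbered by replicate, with the group mean (line), the SD (bar beside it) and the floor of 68.9 (dotted). Low-fat array 1 is the highest of the 6 for H2-Aa, H2-Ab1, H2-Eb1 and Cd74, and 5 of 6 arrays lie below the floor for H2-Ea.

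The invariant chain gene Cd74 had intensities of 3110.3, 3564 and 3209.8 on the high-fat arrays 1, 2 and 3 and of 5081, 2894 and 2449.8 on the low-fat arrays 1, 2 and 3. The high-fat arrays lay close together between the highest low-fat array and the remaining ones, so the diets overlapped. Cd74 averaged 3295 ± 239 (SD, n = 3) under high fat and 3475 ± 1409 (SD, n = 3) under low fat. The ratio of the diets was 0.996 with a 95% confidence interval of 0.687 to 1.44 (limma, adjusted p = 0.998). Without low-fat array 1 the log2 fold change of Cd74 was 0.30 ± 0.14 (SE, adjusted p = 0.684).

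H2-Aa and H2-Ab1 encode the alpha and beta chain of the A molecule, the class II molecule that C57BL/6 mice display. For H2-Aa the high-fat arrays 1, 2 and 3 read 849.6, 995 and 911 and the low-fat arrays 1321, 737 and 678. Its arrays fell in the same order as those of Cd74, from low-fat array 1 at the top through the high-fat arrays 2, 3 and 1 to the low-fat arrays 2 and 3. H2-Aa averaged 919 ± 73.0 (SD, n = 3) under high fat and 912 ± 355 (SD, n = 3) under low fat, a ratio of 1.05 with an interval from 0.725 to 1.53 (limma, adjusted p = 0.974). Leaving out low-fat array 1 gave H2-Aa a log2 fold change of 0.38 ± 0.16 (SE), with an unadjusted p of 0.0447 and an adjusted p of 0.630 in limma. For H2-Ab1 the high-fat arrays read 367, 355 and 444 and the low-fat arrays 680.4, 256.5 and 334. Here too the high-fat arrays lay inside the range of the low-fat ones. The ratio of the diets for H2-Ab1 was 0.998, with an interval from 0.592 to 1.68 (limma, adjusted p = 0.999), and without low-fat array 1 it was 1.32 (adjusted p = 0.806).

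The E molecule shows how the strain limits what can be read. C57BL/6 mice carry the b haplotype of the complex, whose E alpha gene is defective, and RefSeq lists H2-Ea of this strain as a transcribed pseudogene. The H2-Ea probe set gave 28.2, 21.5 and 36.4 on the high-fat and 20, 80.0 and 23.4 on the low-fat arrays. Only low-fat array 2 was above the floor, so H2-Ea was not tested and no fold is given. H2-Eb1, the beta chain gene that would pair with it, was above the floor on all 6 arrays. Its intensities were 881, 1138 and 1003.5 on the high-fat and 1716, 959 and 1003 on the low-fat arrays, again highest on low-fat array 1. The log2 fold change was -0.24 ± 0.22 (SE), with an interval from -0.74 to 0.27 (limma, adjusted p = 0.851), and without low-fat array 1 it was 0.031 (adjusted p = 0.984).

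The peptide exchange genes had a different order of arrays from the chains. H2-DMa, read by its brighter probe set, read 593, 726 and 954.5 with high fat and 759, 492 and 479 with low fat, in the order of the array numbers. Its top array was high-fat array 3, and low-fat array 1 came next. H2-DMa averaged 758 ± 183 (SD, n = 3) under high fat and 577 ± 158 (SD, n = 3) under low fat, a ratio of 1.32 with an interval from 0.911 to 1.91 (limma, adjusted p = 0.716). It had the largest positive fold change of the 9 tested probe sets, and without low-fat array 1 its log2 fold change was 0.61 ± 0.22 (SE), with an unadjusted p of 0.0254 and an adjusted p of 0.533. Without high-fat array 3, its top array, the log2 fold change of H2-DMa was 0.22. The other H2-DMa probe set, which bears a suffix for shared probes, lay near the floor between 60.2 and 98.1 and had a log2 fold change of opposite sign, -0.17 (adjusted p = 0.914). H2-DMb1 read 347, 542 and 417 on the high-fat and at 519, 320.3 and 356 on the low-fat arrays, with a ratio of 1.10 (interval 0.743 to 1.62, adjusted p = 0.945). The H2-DMb1 value is uncertain, because its probe set also bears such a suffix and a second gene, H2-DMb2, is a near-identical copy. A probe set assigned to both of these genes, which is no member, lay between 20.7 and 152.6. Unlike H2-DMb1 it was lowest on low-fat array 1, at 20.7 against 78.4 and 89.0 on low-fat arrays 2 and 3. A probe set of H2-DMb2 alone was highest on low-fat array 1, at 308.2 against 165.8 and 163.6.

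The genes of the H2-DM inhibitor H2-O were dim. H2-Oa stood at 48.9, 133.4 and 78.3 on the high-fat and at 101.5, 101.2 and 230.7 on the low-fat arrays, where 1 high-fat array lay below the floor. The highest array was low-fat array 3, unlike any other tested member. The log2 fold change of H2-Oa was -0.57 ± 0.40 (SE, limma adjusted p = 0.774), with an interval from -1.47 to 0.32. It was the largest of the 9 in size with all arrays, but without low-fat array 3, its top array, it was -0.18, smaller than that of H2-Eb1 at -0.36 in the same fit. H2-Ob was flat near the floor, between 103.4 and 132.0 over all 6 arrays, and had a ratio of 0.987 with an interval from 0.678 to 1.44 (adjusted p = 0.994).

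**Figure D2:**
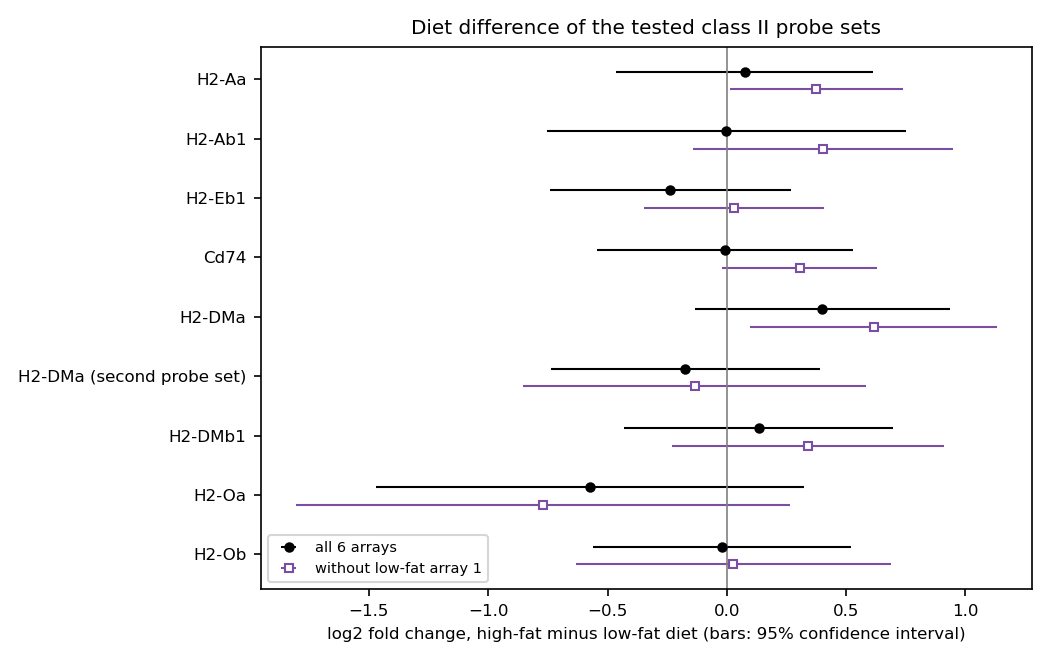
Log2 fold change (high-fat minus low-fat diet) of the 9 tested class II probe sets with its 95% confidence interval, from all 6 arrays (black circles) and without low-fat array 1 (open squares). With all arrays every interval includes 0. Leaving out low-fat array 1, which was high for several of these genes, moves their values to the right by construction.

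The spread within a diet was unequal for the chains and Cd74. On the log2 scale the SD of Cd74 was 0.10 over the high-fat and 0.55 over the low-fat arrays, at the 13.7th and 88.7th percentile of all tested probe sets. For H2-Aa the SDs were 0.11 and 0.52, for H2-Eb1 0.18 and 0.47, and for H2-Ab1 0.17 and 0.73, the last at the 95.3rd percentile for the low-fat arrays. All 4 genes were thus tight on the high-fat diet and wide on the low-fat diet, where the medians over all tested probe sets were 0.25 and 0.24. The peptide exchange genes were about as wide in either diet, with SDs of 0.34 and 0.37 for the brighter H2-DMa probe set and of 0.32 and 0.37 for H2-DMb1. H2-Oa was wide in both, at 0.51 and 0.69, and H2-Ob narrow in both, at 0.18 and 0.086. No test of the spreads was made, with 3 arrays a diet.

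**Figure D3:**
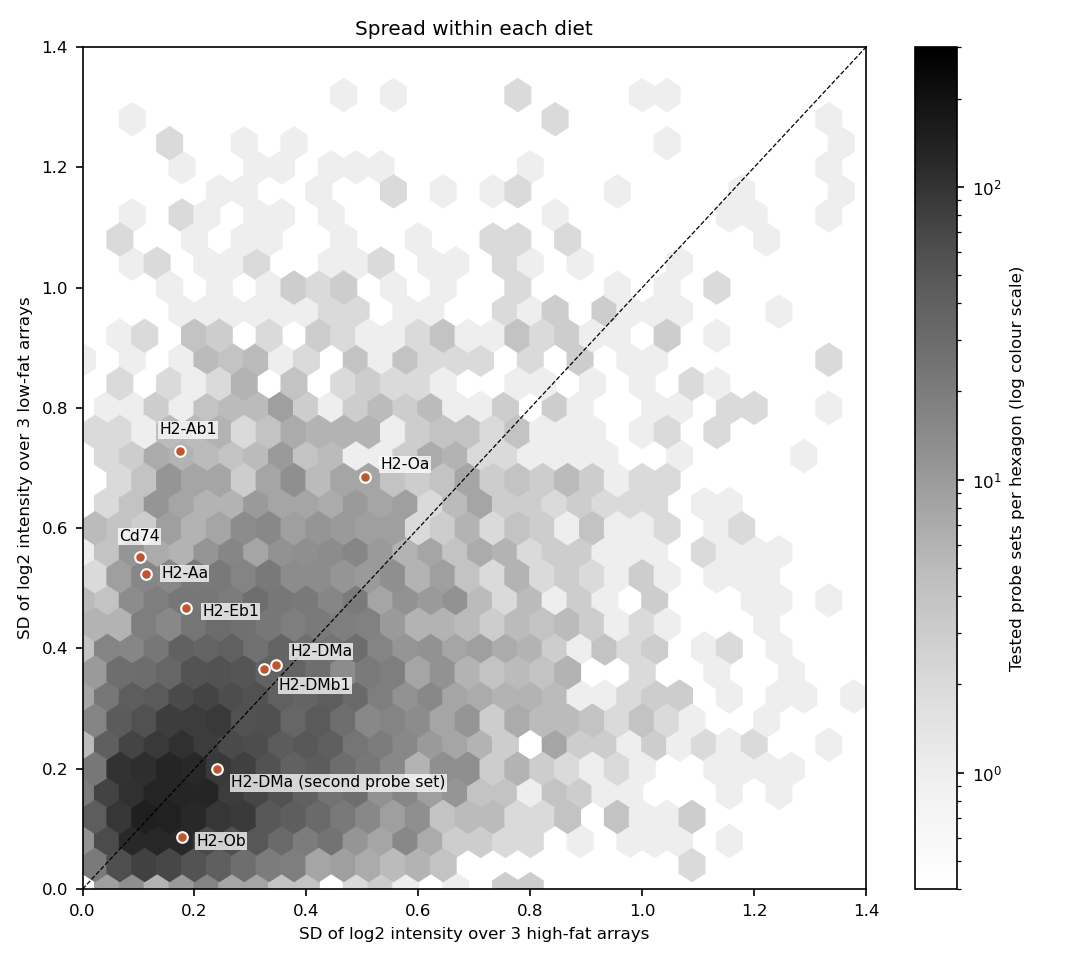
SD of log2 intensity over the 3 low-fat arrays (vertical) against that over the 3 high-fat arrays (horizontal) for the tested probe sets (grey hexagons, darker for more) and the 9 class II probe sets (orange), where 32 of 8950 probe sets lie beyond the axes. Cd74, H2-Aa, H2-Ab1 and H2-Eb1 lie far above the dashed line of equal spread, and H2-DMa and H2-DMb1 lie close to it.

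Among the low-fat arrays, array 1 was the high one for these genes. Its intensity was 1.87 times the mean of the other low-fat arrays for H2-Aa, 2.31 times for H2-Ab1, 1.75 times for H2-Eb1 and 1.90 times for Cd74. For H2-DMa and H2-DMb1 the factors were 1.56 and 1.54. At least 1.5 times was reached by 6 of the 9 tested member probe sets, where 9.22% of all tested probe sets did so. Low-fat array 1 was the highest of the 6 arrays for 4 of the 9, where it was so for 18.1% of all. The factors of these 6 probe sets ran from 1.54 to 2.31 after scaling to a common median and after quantile normalization as well. The labels give no feature of low-fat array 1 that differs from the other low-fat arrays.

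Genes that control class II were compared over the same arrays. Ciita had intensities of 99.3, 197.5 and 148.5 on the high-fat arrays 1, 2 and 3 and of 256.6, 99.4 and 84.4 on the low-fat arrays. As for Cd74 and H2-Aa, low-fat array 1 was the highest, high-fat array 2 the next and low-fat array 3 the lowest. On low-fat array 1 Ciita stood at 2.79 times the mean of the other low-fat arrays, and its diet difference was a log2 fold change of 0.15 (limma, adjusted p = 0.974). The list of class II regulators had 8 tested genes, of which 0 passed in limma, beside 0.915% of all tested genes, 0 had an unadjusted p under 0.05, and 3 reached 1.5 times on low-fat array 1, beside 8.69% of all tested genes. By smallest p the list was led by the myeloid factor genes Irf8 and Spi1, with log2 differences of 0.35 (adjusted p = 0.716) for Irf8 and 0.30 (adjusted p = 0.805) for Spi1. Irf8 read 304.7 on low-fat array 1 and 318 and 291 on the other low-fat arrays, and the factor of Spi1 was 1.31. Besides Ciita, Nfya at 1.55 times and Creb1 at 1.56 times reached 1.5 times. The Creb1 factor uses a value under the floor, 64.6 on low-fat array 2. Rfxank, Nfyc and Nfyb went the other way, at 0.731, 0.882 and 0.903 times, and Rfxank was lowest on low-fat array 1. Rfx5 and Rfxap had no probe set.

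Interferon gamma targets were a further list, since that cytokine induces Ciita. Of its 15 tested genes 10 stood at least 1.5 times higher on low-fat array 1 than on the mean of the other low-fat arrays, beside 8.69% of all tested genes. Examples are the guanylate binding protein gene Gbp2 at 2.15 times, the GTPase gene Igtp at 1.80 times and the transcription factor gene Irf1 at 1.77 times, which were chosen after their values were seen. These 3 were highest on low-fat array 1, as were 5 of the 15 genes in all, beside 17.9% of all tested genes. Under the other scalings the 3 remained highest there. Cxcl9, at 244, 283 and 605 on the high-fat and 304, 222 and 170.1 on the low-fat arrays, also reached 1.5 times but was highest on high-fat array 3. Irgm1 and the receptor gene Ifngr1 went the other way, at 0.780 and 0.683 times on low-fat array 1. These factors use intensities without the floor. Among the 10 genes, Gbp2b read 56.9 and 15.0 on low-fat arrays 2 and 3 and Ifit3 read 26.5 on low-fat array 2, all under the floor. The receptor gene Ifngr2 is also among the 10. Between the diets 0 of the 15 passed in limma and 1 had an unadjusted p under 0.05, beside 9.07% of all tested probe sets. The median log2 fold change was 0.20 against 0.0077 over all genes. By smallest p the list was led by Tap1, the peptide transporter of class I, whose log2 fold change was 0.50 (adjusted p = 0.512), and the GTPase gene Irgm1 at 0.43 (adjusted p = 0.587). Ifng itself and Cxcl10 were below the floor on most arrays and were not tested.

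**Figure D4:**
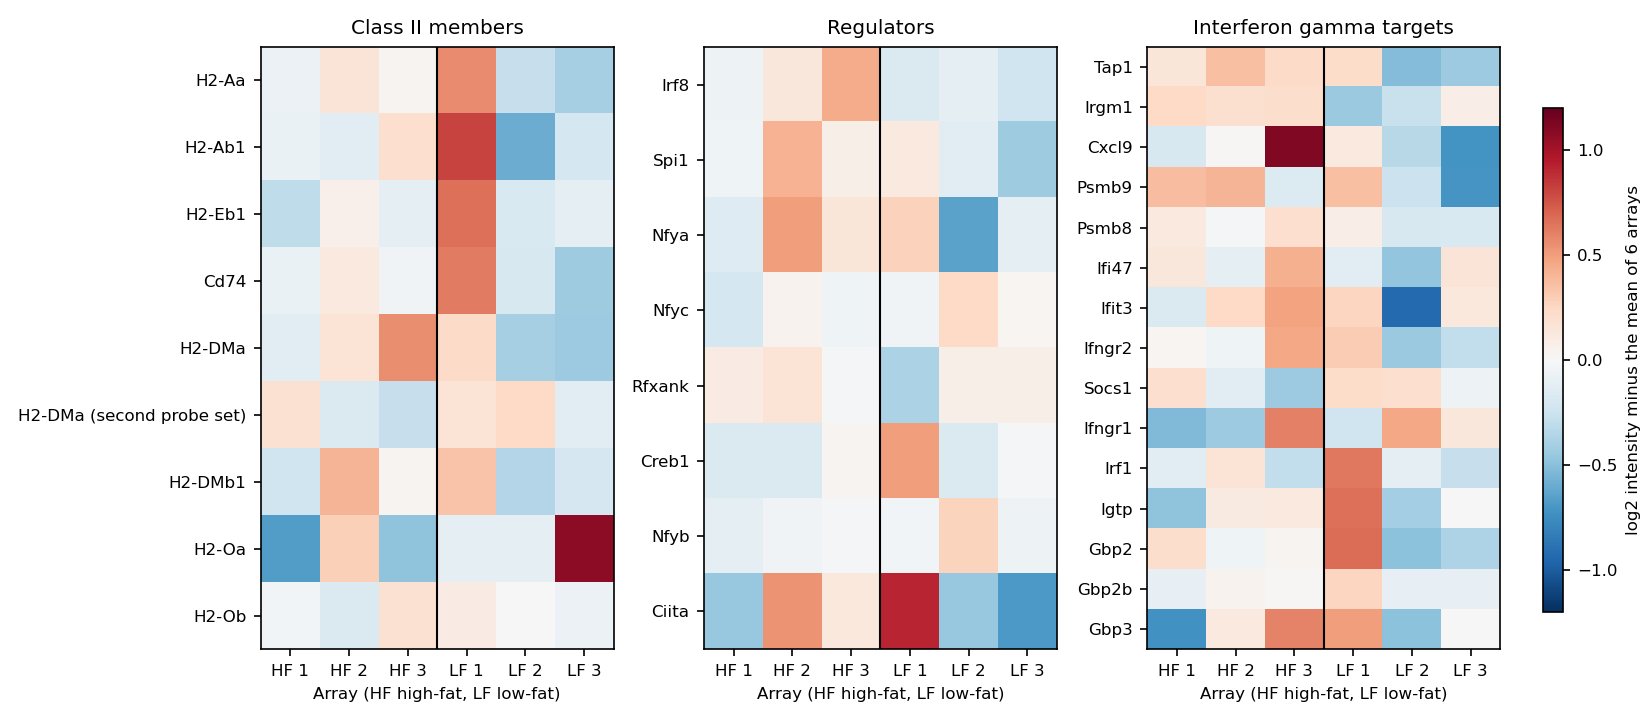
Log2 intensity minus the mean of the 6 arrays for the tested class II probe sets, the class II regulators and the interferon gamma targets (rows) on each array (columns, HF high-fat, LF low-fat). H2-Aa, H2-Ab1, H2-Eb1, Cd74, Ciita, Irf1, Igtp and Gbp2 are darkest red on low-fat array 1, while Irf8 and Cxcl9 are not.

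Steps around the class II molecule showed no gene past the test either. Of 12 tested genes of lysosomal processing, 0 passed in limma and 3 had an unadjusted p under 0.05, beside 9.07% of all tested probe sets. Their median log2 fold change was 0.08. Ctss, the protease that trims the invariant chain, stood at 1551, 1637 and 2359.7 on the high-fat and 1423, 1162 and 1203 on the low-fat arrays, so that the diets did not overlap. Its log2 fold change was 0.53 ± 0.18 (SE, limma adjusted p = 0.366), and that of the asparaginyl endopeptidase gene Lgmn was 0.60 ± 0.21 (SE, adjusted p = 0.402). On low-fat array 1 none of these 12 genes reached 1.5 times the mean of the other low-fat arrays. Among 6 tested genes of costimulation and T cell contact, 0 passed in limma and 0 had an unadjusted p under 0.05. They were led by Cd4 at -0.33 (adjusted p = 0.830) and Cd40 at 0.31 (adjusted p = 0.833), while Cd86, Cd28, Ctla4 and Cd40lg were at the floor. Cd83 and Lag3, 2 of the 6, reached 1.5 times on low-fat array 1, beside 8.69% of all tested genes. Both factors rest on values under the floor, 22.7 and 18.1 for Cd83 on low-fat arrays 2 and 3 and 46.2 for Lag3 on low-fat array 2. Of 9 tested class I genes 0 passed in limma and 1 had an unadjusted p under 0.05. On low-fat array 1, 2 of the 9 reached 1.5 times, beside 8.69% of all tested genes. That array was the highest of the 6 for 4 of these 9 genes, H2-K1, H2-D1, H2-M3 and Tapbp, beside 17.9% of all tested genes.

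Markers of the cells that carry class II were set beside the class II values. For the counts of these lists, 9.07% of all tested probe sets had an unadjusted p under 0.05 in limma. Of all tested genes 8.69% reached 1.5 times on low-fat array 1. For Kupffer cells and macrophages, 14 of 18 listed genes were tested and 0 passed in limma, with 3 at an unadjusted p under 0.05. A fold change above 0 was seen for 12 of the 14, and the share over all genes was not counted. The median log2 fold change of the 14 was 0.31, beside 0.0077 over all tested genes. Their summed intensity ran from 12110 to 14344 on the high-fat and from 9171 to 12124 on the low-fat arrays, with low-fat array 1 at the top of its diet. Of the 14, 4 reached 1.5 times on low-fat array 1, among them the complement gene C1qc at 1.72 times, whereas the macrophage genes Adgre1 and Csf1r stood at 0.627 and 0.826 times. Mpeg1 and Tyrobp led by smallest p, with log2 fold changes of 0.89 (adjusted p = 0.0742) and 0.67 (adjusted p = 0.353), and Marco and Fcer1g were below the floor.

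For dendritic cells 7 of 12 listed genes were tested, 0 passed in limma and 0 had an unadjusted p under 0.05. Their sum was 2470.1 to 3207 on high fat and 2852 to 3538 on low fat, with low-fat array 1 the lowest of its diet. This order rests mainly on 2 bright genes. On low-fat arrays 1, 2 and 3 Fscn1 read 1193.4, 1811.2 and 1410.2, and Flt3 read 785.1, 920.1 and 912.7. Among the dimmer genes, Itgax and Batf3 were highest of their diet on low-fat array 1, and Xcr1, Itgae and Zbtb46 were lowest there. Ccr7 and Irf4 were below the floor. Fscn1 and the integrin gene Itgax led at -0.37 and 0.64 (adjusted p = 0.713 and 0.768), and 1 of the 7, Itgax at 1.94 times, reached 1.5 times on low-fat array 1. The others ran from 0.257 times for Zbtb46 to 1.45 times for Batf3, and the mean centred log2 value of the list on that array was -0.04. For B cells 9 of 15 were tested, 0 passed in limma and 1 had an unadjusted p under 0.05, with sums of 2304 to 2726 on high fat and 2339 to 2566 on low fat. Low-fat array 1, at 2430, lay between the other low-fat arrays. Of the 9 genes 1, Cd79b at 1.78 times, reached 1.5 times on that array. Cd22, Cr2, Cd72, Fcer2a and Cxcr5 were below the floor, and Blnk and Ighm led at -0.65 and 0.23 (adjusted p = 0.465 and 0.767).

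T cell markers were mostly at the floor, with 4 of 12 tested, among them Cd27 and Thy1 at log2 fold changes of 0.93 and 0.40 (adjusted p = 0.518 and 0.817), and 6 below it, Cd3e and Cd8a included. Of these 4 genes 0 passed in limma and 1 had an unadjusted p under 0.05. Their sum was 1128 to 1603 on high fat and 1112 to 1456 on low fat, lowest on low-fat array 1. Most of that sum was Zap70, at 985.4, while Cd27, Thy1 and Cd3g were under the floor on that array, at 22.8, 52.1 and 51.3. Of the 11 general leukocyte genes 0 passed in limma and 2 had an unadjusted p under 0.05, led by Arhgdib and Rac2 at 0.38 and -0.53 (adjusted p = 0.402 and 0.542). The sum of the leukocyte genes was 4327 to 5569 on high fat and 4233 to 4682 on low fat, with low-fat array 1 the lowest of all 6. This order depends on the probe set taken for Laptm5. Another Laptm5 probe set, not in the sum, read 550, 517.9 and 471.5 on the high-fat and 563.9, 71.4 and 82.8 on the low-fat arrays. The 8 endothelial genes summed to 4512 to 5561 on high fat and 4624 to 5175 on low fat, with low-fat array 1 at the top of its diet. This list had 0 genes past the test in limma and 0 at an unadjusted p under 0.05, led by Kdr and Lyve1 at -0.29 and 0.33 (adjusted p = 0.805 and 0.815). Among bile duct markers Krt18 alone was tested (0.33, adjusted p = 0.437), and Krt19, Krt7, Epcam and Cldn7 were below the floor. Of the 9 hepatocyte genes 0 passed in limma and 1 had an unadjusted p under 0.05, and the list was led by Tat and Cps1 at -0.79 and -0.21 (adjusted p = 0.0742 and 0.830). The hepatocyte sum was 152795 to 193735 on high fat and 160404 to 197321 on low fat, highest of all 6 on low-fat array 1. The part of these cell types in the class II values was not tested.

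**Figure D5:**
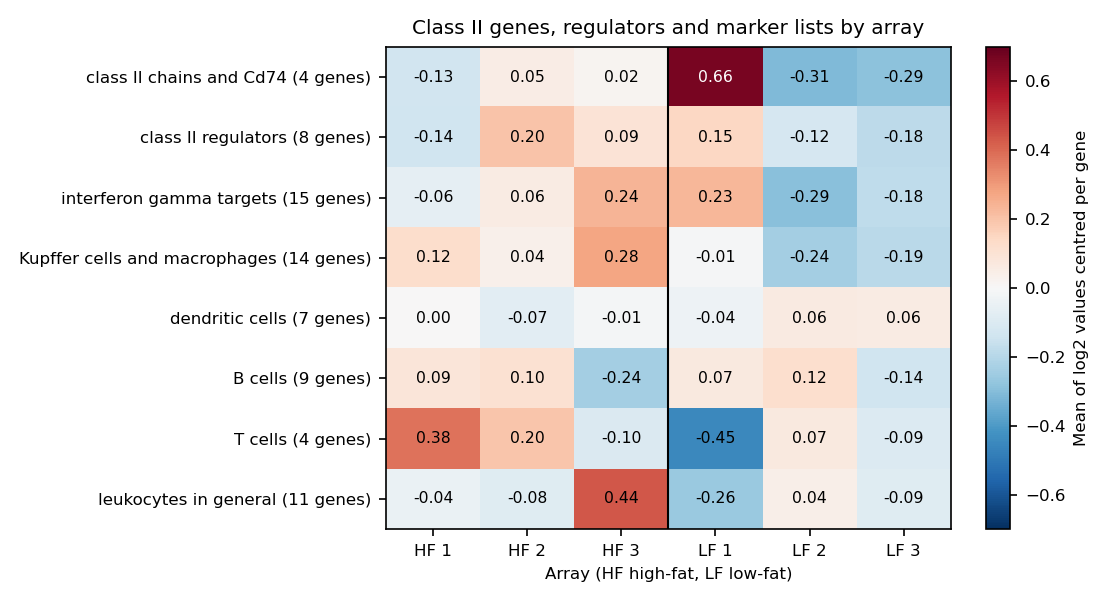
Mean over the genes of a list of the log2 value centred per gene (printed in each cell) on each array (HF high-fat, LF low-fat). The class II chains and Cd74 reach 0.66 on low-fat array 1. There the leukocyte genes stand at -0.26, the T cell genes, mostly under the floor, at -0.45, the macrophage genes at -0.01 and the interferon gamma targets at 0.23. The interferon gamma targets also stand at 0.24 on high-fat array 3, and the macrophage genes at -0.24 and -0.19 on low-fat arrays 2 and 3.

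The genes whose pattern over the 6 arrays was most like that of H2-Aa, H2-Ab1, H2-Eb1 and Cd74 were ranked by Pearson's r with the mean of their centred log2 values, among 6549 other tested genes. The top 5 were Plcg1 (r = 0.987), Gbp2b (r = 0.983), Dcaf8l (r = 0.979), Zfp36l2 (r = 0.973) and Cep89 (r = 0.971), and Ciita was 46th at r = 0.910. Plcg1, a phospholipase gene, stood at 284, 308 and 290.2 on the high-fat and 372, 274.5 and 271 on the low-fat arrays, in the same order as Cd74. Zfp36l2, which encodes an RNA-binding protein, stood at 926, 941 and 997 on the high-fat and 1609.5, 868 and 842 on the low-fat arrays. Gbp2b, also on the interferon gamma list, and Dcaf8l were near the floor. Since r rests on 6 arrays and mostly on low-fat array 1, it is a description, and 55 genes had an r of at least 0.9. Among the remaining members r with the same mean was 0.789 for H2-DMb1, 0.628 for the brighter H2-DMa probe set, 0.388 for H2-Ob, 0.0942 for the other H2-DMa probe set and -0.226 for H2-Oa.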

How the data were processed

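The table holds 1 linear intensity per probe set and array, deposited by the authors. Neither software nor background correction is given in the sources used here, and the equal trimmed means show that whole arrays had been scaled, which cannot show a change of most transcripts in one direction. The scaling was kept, values were floored at the pooled 30th percentile (68.9) and log2 was taken. The 66 control probe sets were left out. Probe sets above the floor on at least 3 arrays were fitted with limma 3.58.1 in R 4.3.3 (lmFit, eBayes with a variance trend), high-fat minus low-fat, two-sided, with Benjamini-Hochberg adjustment over all 8950 and a threshold of 0.05. All adjusted p-values and confidence intervals are limma's. Folds are ratios of floored log2 means and understate changes near the floor. Printed means and SDs use intensities as deposited, without the floor.

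The platform's gene table gave 10855 probe sets 1 symbol, 396 several and 1237 none. Of the single-symbol probe sets 10839 had a gene ID in the RefSeq table, which changed 0 symbols. Gene lists used the probe set of highest mean log2 per gene. The members and lists were chosen with earlier results of these data known. Genes named by rule were all member probe sets, the 2 of smallest p per list and the 5 most alike over the arrays. Others, such as Ciita, Gbp2, Cxcl9, Ifngr1, C1qc, Adgre1, Csf1r, Zbtb46 and Batf3, were named outside this rule, for their role or their values. The fit was tested on simulated data. Alternatives were other scalings, floors, filters and variance models, a block for the replicate number, omission of each array and other probe set choices.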

Additional observations from a re-analysis of the deposited data

How the results depend on the processing

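Across 16 other fits 0 class II probe sets passed the threshold, and the smallest adjusted p of any was 0.533, for H2-DMa without low-fat array 1. The number of calls over all probe sets, 74, was 8 without a filter, 20 without the variance trend and 26 to 75 with each array left out. Single member values kept their sign in 123 of 139 recomputations and turned it in 16. Cd74 turned to 0.035 with array weights and to 2.06e-04 with quantile normalization, and H2-Ab1 to 0.095 with array weights. With each array left out the log2 fold change ran from -0.22 to 0.30 for Cd74, -0.11 to 0.38 for H2-Aa, -0.30 to 0.40 for H2-Ab1, -0.39 to 0.031 for H2-Eb1, -0.036 to 0.34 for H2-DMb1, -0.11 to 0.063 for H2-Ob, -0.86 to -0.18 for H2-Oa, 0.22 to 0.61 for the brighter H2-DMa probe set and -0.31 to -0.081 for the other. The median over the member genes ran from -0.11 to 0.32 in the same way. Fewer arrays remain in each of these fits; no further cause was tested. With the replicate block 103 probe sets and 0 class II probe sets were called. Same-numbered arrays had deviations that correlated at 0.071, 0.110 and 0.306, and high-fat array 1 correlated best with low-fat array 2, so the numbers were not taken to pair the arrays. H2-Oa, H2-Ob, H2-Ea and the dimmer H2-DMa probe set lie near or below the floor, where changes are compressed.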
